A study of Homo sapiens with 6 samples.

Results

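The 9 genes of the insulin-like growth factor (IGF) ligands and IGF-binding proteins were IGF1, IGF2 and IGFBP1 to IGFBP7, chosen by symbol, and each matched 1 row of a table of 62703 genes. Their messenger RNA was measured in the gastric cancer cell line HGC-27, an established human line kept in medium with 10% fetal bovine serum, which itself can hold IGFs and binding proteins as protein. HGC-27 cells stably transfected with a short hairpin RNA (shRNA) against GXYLT2, a xylosyltransferase (shGXYLT2, n = 3 libraries), were compared with HGC-27 cells that carried a control shRNA (shControl, n = 3 libraries). The design asks how lower GXYLT2 levels alter genes of malignant behaviour. The labels give 1 knockdown line, do not say that replicates came from separate cultures and give no rescue, so the p-values rest on a spread between libraries that may be technical, and an effect of the hairpin or of the line cannot be told apart from one of GXYLT2.

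IGF1 and IGF2 are secreted growth factors that signal through the receptor IGF1R, while IGF2R binds IGF2 and carries it to lysosomes. IGFBP1 to IGFBP6 bind both ligands with high affinity outside the cell, extend their half-life and limit or deliver them to receptors, and several also bind matrix. IGFBP7 binds IGFs weakly and is known as a matrix and vessel-wall protein. Proteases such as PAPPA cut binding proteins and free the ligand.

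Library totals were 22188073 to 24898425 counts in shGXYLT2 and 17291138 to 22540099 in shControl. GXYLT2 averaged 5.63 ± 0.556 CPM (counts relative to library size, scaled by TMM factors) in shGXYLT2 and 21.3 ± 1.40 CPM in shControl (SD, n = 3 each), 73.5% lower in the knockdown; the exact permutation test was two-sided and gave p = 0.1, its lowest possible value here, and edgeR gave an adjusted p of 6.3e-10. The shGXYLT2 libraries differed more among themselves (chi-square of counts per degree of freedom 5.86 to 11) than the shControl libraries did (1.95 to 3.97). Pairs across the groups ran from 8.54 to 18.7, which overlaps the range within shGXYLT2. The measure was not corrected for depth. Of 15693 genes tested, 12.2% passed at a Benjamini-Hochberg adjusted p below 0.05 in edgeR's quasi-likelihood test, 5.31% as higher and 6.84% as lower, and the 2 groups of libraries did not overlap in 30.4%. Markers of epithelium were low in every library, with a summed level of 3.79 to 4.74 CPM in shGXYLT2 and 4.28 to 5.31 CPM in shControl for 5 genes (CPM by library totals, as for the other marker sums). KRT8 averaged 1.78 and CDH1 2.33 CPM in shGXYLT2 libraries, against 1.57 and 2.92 CPM in shControl libraries. Of 6 gastric markers 5 were at 0 in all libraries (MUC5AC, TFF1, TFF2, GKN1 and PGC), and MUC6 averaged 4.22 CPM in shGXYLT2 and 2.05 CPM in shControl (edgeR adjusted p = 0.0029).

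Of the 9 genes, 7 passed the filter on low counts, with at least 134 counts in each library, and 3 of these 7 differed: IGFBP5 and IGFBP7 rose and IGFBP6 fell in shGXYLT2 cells. IGF2, IGFBP2, IGFBP3 and IGFBP4 did not pass, and IGF1 and IGFBP1 were too low to test. The median log2 fold change of the 7 was -0.11, beside -0.0057 over all tested genes. These 3 calls among 7 genes stand beside 12.2% over all tested genes, and 4 of the 7 had groups that did not overlap, beside 30.4%. The members were chosen with earlier results of these data known. IGFBP5 ranked 309 and IGFBP7 437 from the highest log2 fold change of 15693 genes, and IGFBP6 ranked 485 from the lowest. In these bulk libraries, fewer cells of a type and less RNA per cell cannot be told apart.

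**Figure D1:**
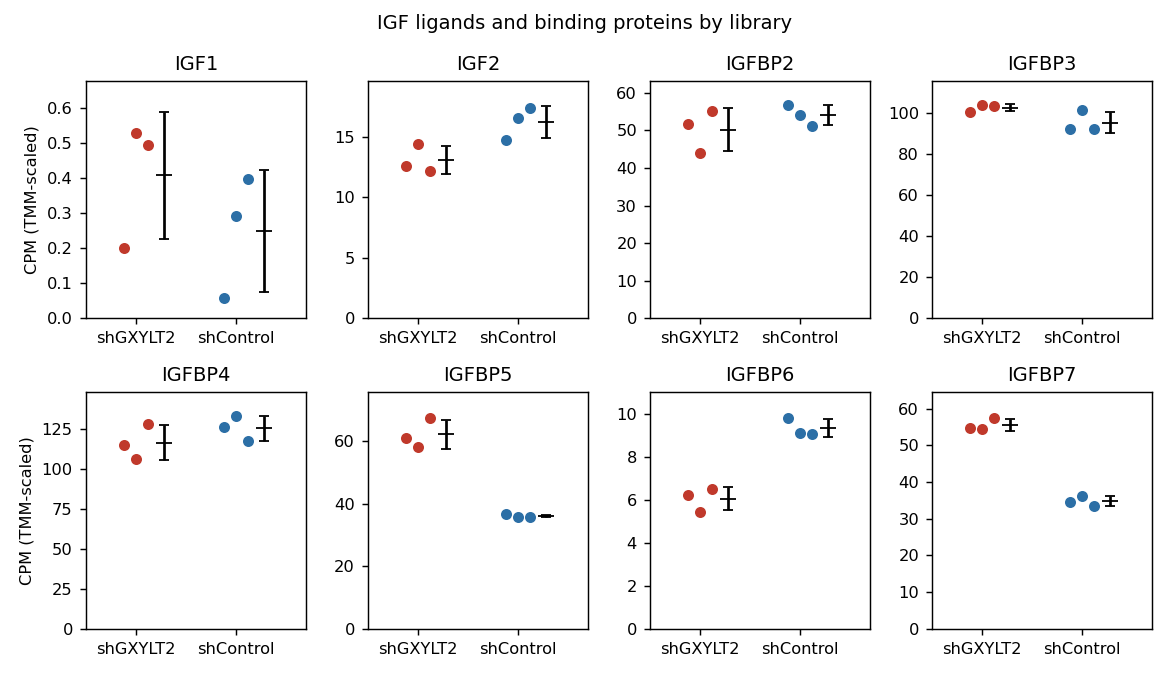
TMM-scaled CPM (y axis, from 0) of 8 members in each of 3 shGXYLT2 (red, left) and 3 shControl libraries (blue, right); the bar beside each group is the mean with its SD, and IGFBP1, at 0 counts in all libraries, is not drawn. IGFBP5 and IGFBP7 lie higher and IGFBP6 and IGF2 lower in every shGXYLT2 library than in any shControl library.

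IGFBP5, a binding protein that also attaches to extracellular matrix, showed the largest change of the 7. It measured 60.9, 58.1 and 67.3 CPM in shGXYLT2 libraries 1 to 3, against 36.6, 35.9 and 35.7 CPM in shControl libraries 1 to 3. All shGXYLT2 libraries lay above all shControl libraries, and the shControl values hardly varied. The log2 fold change was 0.78 (SE 0.072, 95% interval 0.63 to 0.93, edgeR adjusted p = 3.7e-07), a 1.72-fold rise. The gene (ENSG00000115461) lies on the minus strand at chr2:216672105-216695525 (GRCh38, GENCODE 29), 7668 bases from the end of IGFBP2, which is transcribed toward it from the plus strand. The pair moved apart: the ratio of IGFBP5 to IGFBP2 counts, which no scaling of libraries alters, was 1.18, 1.32 and 1.22 in shGXYLT2 and 0.644, 0.663 and 0.696 in shControl libraries.

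IGFBP7 rose next most. It measured 54.7, 54.5 and 57.5 CPM in shGXYLT2 libraries 1 to 3, against 34.5, 36.3 and 33.6 CPM in shControl libraries 1 to 3. The groups did not overlap, and within each group the libraries were close together. The log2 fold change was 0.68 (SE 0.069, 95% interval 0.53 to 0.82, edgeR adjusted p = 1.7e-06), a 1.60-fold rise. IGFBP7 (ENSG00000163453, minus strand, chr4:57030773-57110385) overlaps POLR2B, a subunit gene of RNA polymerase II on the other strand, and its estimated counts were not whole numbers. POLR2B averaged 344 ± 34.8 CPM in shGXYLT2 and 349 ± 6.29 CPM in shControl (SD over 3 libraries each; adjusted p = 0.89 by edgeR), and the antisense gene IGFBP7-AS1 had at most 1 count in any library. The sources used here do not say if strand was used in counting, so reads from the shared stretch could be assigned to either gene.

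IGFBP6, a binding protein that prefers IGF2 over IGF1, was the member that fell. It measured 6.23, 5.46 and 6.51 CPM in shGXYLT2 libraries 1 to 3, against 9.83, 9.14 and 9.06 CPM in shControl libraries 1 to 3, from 134 to 156 counts in shGXYLT2 and 156 to 206 in shControl. Every shGXYLT2 library was below every shControl library. The log2 fold change was -0.62 (SE 0.12, 95% interval -0.88 to -0.36, edgeR adjusted p = 0.0023), 1.54-fold lower. IGFBP6 (ENSG00000167779) lies on the plus strand at chr12:53097436-53102345, apart from the other members.

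The promoters of IGFBP5 and IGFBP6 are shown because these genes moved in opposite directions; each runs from 250 bases before to 50 after the RefSeq start (GRCh38.p14, 5′ to 3′ on the gene's own strand, at chr2:216695500-216695799 on the minus strand and chr12:53097417-53097716 on the plus strand). IGFBP7, IGF2 and IGFBP1 were not among the entries. Capitals mark matches on either strand to a TATA box (TATAAA), a GC box (GGGCGG), an AP-1 element (TGACTCA), an AP-2 element (GCCNNNGGC), an E-box (CANNTG) and the element known by its letters, CCAAT.
IGFBP5: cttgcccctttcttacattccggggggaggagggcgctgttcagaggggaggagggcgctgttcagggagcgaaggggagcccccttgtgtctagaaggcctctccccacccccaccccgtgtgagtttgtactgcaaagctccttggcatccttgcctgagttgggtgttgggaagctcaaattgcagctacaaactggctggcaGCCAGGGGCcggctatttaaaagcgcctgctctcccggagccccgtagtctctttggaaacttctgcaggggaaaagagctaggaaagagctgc
IGFBP6: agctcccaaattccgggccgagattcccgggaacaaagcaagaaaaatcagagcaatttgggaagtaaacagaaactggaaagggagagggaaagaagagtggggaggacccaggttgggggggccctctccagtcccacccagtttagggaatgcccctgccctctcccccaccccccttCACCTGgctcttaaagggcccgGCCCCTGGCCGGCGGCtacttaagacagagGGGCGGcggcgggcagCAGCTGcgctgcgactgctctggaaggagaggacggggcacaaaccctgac
In the IGFBP5 window 1 AP-2 match was found, from 44 to 36 bases before the start, and none of the other motifs as spelled above. Variants of these words, such as the TATTTAAA that follows the AP-2 match, were not searched. The IGFBP6 window held 2 AP-2 matches that overlap each other, the first from 47 to 39 and the second from 40 to 32 bases before the start, with 1 GC box and 2 E-boxes that overlap no other match. An AP-2 match was present in 23.2% of 34796 promoter windows of this length, a GC box in 44.9% and an E-box in 68.7%. None of the windows of IGF1, IGFBP2, IGFBP3 or IGFBP4 held an AP-2 match. The motifs were chosen with the sequences known, so this difference between windows tests nothing. In IGFBP4, a TATAAA began 29 bases before the start, a word held by 11.6% of windows. CCAAT was in 34.6% of windows and in 1 of 3 of IGFBP2, and the AP-1 word was in 4.96% and in none of these members. The GC content was 59% for the IGFBP5 window and 61.7% for that of IGFBP6, beside a median of 58.7% over all windows.

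IGFBP4, IGFBP3 and IGFBP2 did not pass the test. IGFBP4, a binding protein that PAPPA cuts, measured 115, 106 and 128 CPM in shGXYLT2 libraries 1 to 3, against 126, 133 and 117 CPM in shControl libraries 1 to 3. The groups overlapped, with a log2 fold change of -0.11 (95% interval -0.26 to 0.043, edgeR adjusted p = 0.38). Without shGXYLT2 replicate 3, its highest library of that group, the log2 fold change was -0.18 with an edgeR adjusted p of 0.045 (0.045 to 0.74 over 15 alternative settings).

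IGFBP3, the main carrier of IGFs in blood, measured 100.5, 104 and 103 CPM in shGXYLT2 libraries 1 to 3, against 92.1, 101 and 92.1 CPM in shControl libraries 1 to 3. shControl replicate 2 reached into the range of the shGXYLT2 libraries. The log2 fold change was 0.11 (95% interval -0.023 to 0.24, edgeR adjusted p = 0.30). IGFBP2 measured 51.7, 43.9 and 55.1 CPM in shGXYLT2 libraries 1 to 3, against 56.7, 54.1 and 51.3 CPM in shControl libraries 1 to 3. The groups overlapped, with a log2 fold change of -0.11 (95% interval -0.27 to 0.062, edgeR adjusted p = 0.45). IGFBP1, a binding protein of liver and decidua that lies 18576 bases from IGFBP3 on chromosome 7, had 0 counts in all 6 libraries, which allows a level of up to 0.120 to 0.135 CPM in shGXYLT2 libraries and 0.133 to 0.173 CPM in shControl libraries (3 counts of each total, counting error only).

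Of the ligands, IGF2, the fetal growth factor expressed from an imprinted locus, was the one above the filter. It measured 12.6, 14.4 and 12.2 CPM in shGXYLT2 libraries 1 to 3, against 14.8, 16.5 and 17.4 CPM in shControl libraries 1 to 3. All shGXYLT2 libraries lay below all shControl libraries, by a narrow margin. The log2 fold change was -0.31 (SE 0.10, 95% interval -0.53 to -0.098), with an edgeR adjusted p of 0.053 (unadjusted p = 0.0065). Without shGXYLT2 replicate 2 the log2 fold change was -0.39 and the adjusted p 0.028, and over the 15 alternative settings the adjusted p ran from 0.028 to 0.24. IGF2 (ENSG00000167244) lies on the minus strand at chr11:2129112-2149603, where the readthrough gene INS-IGF2 was at 0 counts and the antisense gene IGF2-AS had 0 to 3 counts per library. IGF2 was also set against the summed binding proteins, both per kb of listed length. It stood at 4.39%, 5.29% and 3.97% in shGXYLT2 libraries and 5.40%, 5.86% and 6.72% in shControl libraries. The groups did not overlap, by a narrow margin. The sum includes IGFBP7, which binds IGFs weakly and rose.

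IGF1, the ligand made in liver and connective tissue, had estimated counts of 4.52, 13 and 11.17 in shGXYLT2 libraries and 1.44, 5.01 and 9.01 in shControl libraries. The groups overlapped at this depth, and IGF1 did not pass the filter. The lncRNA gene HELLPAR overlaps IGF1 on the other strand and had 1356 to 2581 counts per library, so even these few counts may belong to it in part; this was not tested.

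**Figure D2:**
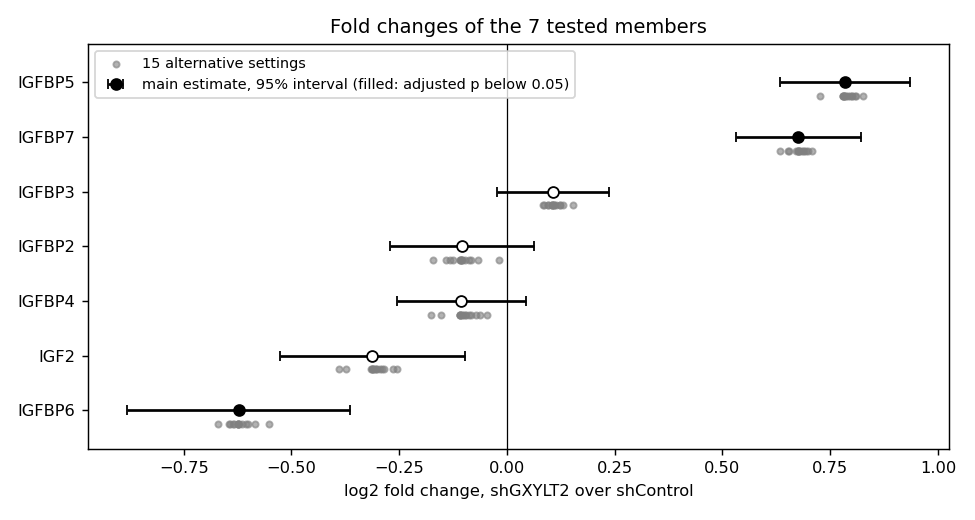
Log2 fold change (x axis, shGXYLT2 over shControl) of the 7 tested members, with 95% intervals in black and the 15 alternative settings as grey points under each. The grey points of IGFBP5 and IGFBP7 stay at 0.63 or above, those of IGFBP6 at -0.55 or below, and no member changes sign.

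Levels between members were compared as CPM per kb of the listed gene length, whose definition is not given in the sources used here. In shGXYLT2 the order was IGFBP4 (53.0 ± 5.01), IGFBP7 (38.9 ± 1.19), IGFBP3 (38.9 ± 0.646), IGFBP2 (35.5 ± 4.03), IGFBP5 (9.95 ± 0.751), IGF2 (8.27 ± 0.739), IGFBP6 (6.41 ± 0.577), IGF1 (0.372 ± 0.165) and IGFBP1 at 0 (CPM per kb, SD, n = 3 each). IGFBP7, IGFBP3 and IGFBP2 overlapped with their neighbours in that order. In shControl the order was IGFBP4 (57.0 ± 3.63), IGFBP2 (38.2 ± 1.92), IGFBP3 (36.2 ± 2.01), IGFBP7 (24.4 ± 0.972), IGF2 (10.2 ± 0.838), IGFBP6 (9.87 ± 0.446), IGFBP5 (5.78 ± 0.0721), IGF1 (0.227 ± 0.158) and IGFBP1 at 0 (CPM per kb, SD, n = 3 each). IGFBP2 and IGFBP3 overlapped there, as did IGF2 and IGFBP6. IGFBP5 thus stood above IGF2 and IGFBP6 in every shGXYLT2 library and below both in every shControl library.

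The shares of IGFBP5, IGFBP6 and IGFBP7 in the binding protein RNA differed more than its total. The summed CPM of the 7 binding proteins was 389, 372 and 418 in shGXYLT2 and 356, 370 and 339 in shControl libraries. By this measure the groups did not overlap, by a narrow margin. The summed CPM per kb of the 7 binding proteins was 182, 172 and 194 in shGXYLT2 and 173, 178 and 163 in shControl libraries, which overlap. IGFBP7 made up 21.3% ± 0.757 of this sum in shGXYLT2 and 14.2% ± 0.220 in shControl, and IGFBP5 made up 5.44% ± 0.0932 in shGXYLT2 and 3.37% ± 0.139 in shControl (SD, n = 3 each). IGFBP6 made up 3.50% ± 0.140 in shGXYLT2 and 5.76% ± 0.305 in shControl, and IGFBP4, whose own level did not pass the test, 28.9% ± 0.959 in shGXYLT2 and 33.2% ± 0.694 in shControl (SD, n = 3 each). IGFBP2 made up 19.4% ± 1.16 in shGXYLT2 and 22.3% ± 0.877 in shControl and IGFBP3 21.4% ± 1.40 in shGXYLT2 and 21.1% ± 0.724 in shControl (SD, n = 3 each); the groups did not overlap for IGFBP2 and overlapped for IGFBP3. As shares of 1 sum, these values are not independent of each other. Within a library, IGFBP7 had 0.474, 0.512 and 0.448 counts per count of IGFBP4 in shGXYLT2, against 0.273, 0.272 and 0.286 in shControl.

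**Figure D3:**
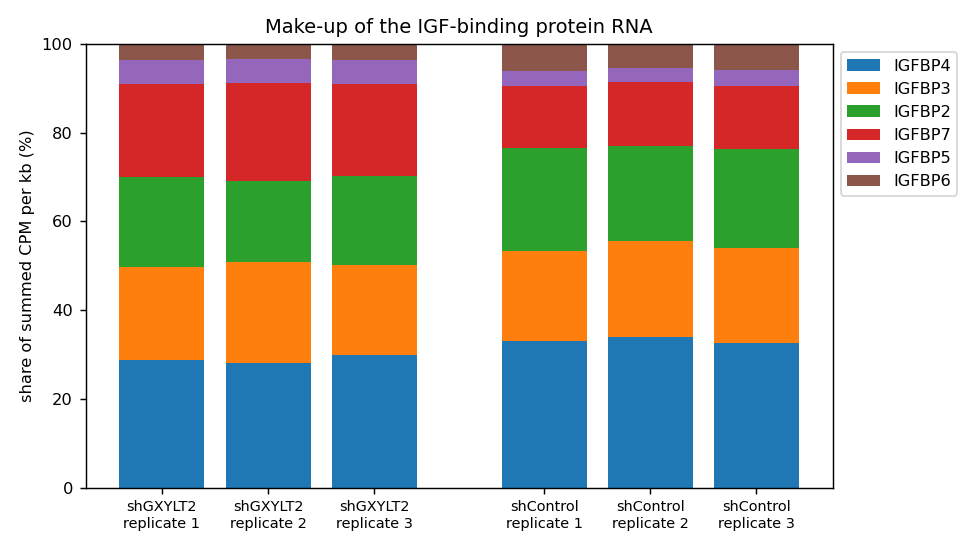
Share of each binding protein in the summed CPM per kb of the binding proteins (y axis, %) in 3 shGXYLT2 libraries (left) and 3 shControl libraries (right); IGFBP1, at 0, is left out. The IGFBP7 and IGFBP5 segments are taller and the IGFBP4, IGFBP6 and IGFBP2 segments shorter in each shGXYLT2 bar than in any shControl bar.

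Genes that control the binding proteins outside the cell moved in both directions. Of 12 listed proteases, their inhibitors and the ternary complex subunit IGFALS, 6 were tested, 2 rose and 2 fell. The shares over all tested genes were 5.31% risen and 6.84% fallen. This list was chosen with earlier results of these data known, so its counts are a description only. PAPPA, the metalloprotease that cuts IGFBP4 and IGFBP5, measured 0.879, 0.855 and 0.808 CPM in shGXYLT2 libraries, against 2.53, 1.64 and 1.72 CPM in shControl libraries. It was lower in every shGXYLT2 library, with a log2 fold change of -1.20 (SE 0.28, edgeR adjusted p = 0.0079), but without shControl replicate 1, its highest library, the adjusted p was 0.071 (0.0021 to 0.071 over 15 settings). STC1, a secreted inhibitor of PAPPA, measured 13.5, 14.3 and 12.8 CPM in shGXYLT2 libraries, against 2.76, 3.05 and 2.86 CPM in shControl libraries, a 4.67-fold rise (edgeR adjusted p = 7.8e-10). STC2, which inhibits PAPPA too and was the more abundant, averaged 67.3 ± 2.53 CPM in shGXYLT2 and 77.4 ± 1.77 CPM in shControl (SD over 3 libraries each), a log2 fold change of -0.20 with an adjusted p of 0.041 by edgeR. The STC2 call did not hold in 9 of 15 alternative settings (0.0035 to 0.17), among them those without shGXYLT2 replicate 1 or 2 or any 1 shControl library. HTRA1, a secreted serine protease known to cut IGFBP5, rose to 49.9 ± 2.72 CPM in shGXYLT2, against 38.5 ± 0.354 CPM in shControl (SD over 3 libraries each; adjusted p = 0.0013 by edgeR). PAPPA2, ADAM12 and MMP7 were at 0 in all libraries, and IGFALS, a subunit of the circulating complex, had at most 1 count in any library.

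Among the listed genes for proteins that share the IGFBP-type domain without being IGFBPs, more fell than rose. Of 13 listed genes 7 were tested, 1 rose (HTRA1) and 4 fell, with a median log2 fold change of -0.26. Over all tested genes 5.31% rose and 6.84% fell, and the list was chosen with earlier results known. The matricellular gene CCN3 averaged 42.0 ± 1.39 CPM in shGXYLT2 and 82.0 ± 4.17 CPM in shControl (SD over 3 libraries each), a log2 fold change of -0.96 with an adjusted p of 8.9e-09 by edgeR. CCN1 averaged 51.2 ± 2.63 CPM in shGXYLT2 and 72.3 ± 2.30 CPM in shControl (SD over 3 libraries each; adjusted p = 4.4e-05 by edgeR). CRIM1, a membrane protein that binds BMPs, averaged 103 CPM in shGXYLT2 and 123 CPM in shControl (edgeR adjusted p = 0.0072, and 0.071 without shControl replicate 1). The fourth to fall was CCN2, with 15.7 CPM in shGXYLT2 and 19.5 CPM in shControl (edgeR adjusted p = 0.038). The CCN2 call did not hold in 9 of 15 alternative settings (0.0076 to 0.16), among them DESeq2, which called 4 of the 7, the replicate block (0.053), and those without shGXYLT2 replicate 2 or 3 or any 1 shControl library.

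Of 4 IGF and insulin receptor genes, 3 were tested and 0 passed in edgeR, DESeq2 or limma-voom, with 1 at an unadjusted p below 0.05 in each. In edgeR 12.2% of all tested genes passed, so 0 of 3 is too few to set the receptors apart. IGF1R, the signalling receptor of both ligands, measured 38.0, 38.6 and 38.8 CPM in shGXYLT2 libraries, against 42.1, 39.0 and 38.8 CPM in shControl libraries, with a log2 fold change of -0.054 (SE 0.071, edgeR adjusted p = 0.69). IGF2R averaged 115 ± 3.87 CPM in shGXYLT2 and 107 ± 3.52 CPM in shControl (SD over 3 libraries each; adjusted p = 0.33 by edgeR), and passed with GC content and length offsets (adjusted p = 0.016). INSR averaged 9.43 CPM in shGXYLT2 and 11.4 CPM in shControl (edgeR adjusted p = 0.10). Of 17 receptor substrates and adaptors, 13 were tested, 0 rose and 1 fell, beside 5.31% risen and 6.84% fallen over all tested genes. PTPN11, the phosphatase SHP2, was the 1 that fell. It averaged 213 ± 16.9 CPM in shGXYLT2 and 248 ± 1.44 CPM in shControl (SD over 3 libraries each, adjusted p = 0.026 by edgeR). The PTPN11 call did not hold without shControl replicate 1, 2 or 3 (adjusted p = 0.11, 0.097 and 0.10) or with the replicate block (adjusted p = 0.052). IRS1, a docking protein of both receptors, averaged 4.77 ± 0.846 CPM in shGXYLT2 and 6.26 ± 0.932 CPM in shControl (SD over 3 libraries each), with overlapping groups, a log2 fold change of -0.40 and an edgeR adjusted p of 0.12.

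Of 11 listed genes that neighbour IGF2 or are known to regulate it or bind its mRNA, 7 were tested, 0 rose and 1 fell. The shares over all tested genes were 5.31% risen and 6.84% fallen. H19, the imprinted noncoding RNA beside IGF2, measured 1.80, 1.47 and 2.11 CPM in shGXYLT2 libraries, against 3.51, 2.99 and 2.68 CPM in shControl libraries, with a log2 fold change of -0.77 (SE 0.21, edgeR adjusted p = 0.022). It did not pass in DESeq2 (adjusted p = 0.052) or without shGXYLT2 replicate 1 or 2 or shControl replicate 1 or 2 (adjusted p = 0.060, 0.084, 0.13 and 0.060). The other 6 did not pass, among them the IGF2 mRNA-binding protein IGF2BP1, which averaged 98.9 CPM in shGXYLT2 and 97.9 CPM in shControl. Of 11 further insulin-family ligands and growth hormone axis genes, 2 were tested and 0 passed in edgeR, DESeq2 or limma-voom, with 1 at an unadjusted p below 0.05 in each. The share over all tested genes in edgeR was 12.2%. STAT5B, a transcription factor downstream of growth hormone, averaged 38.9 CPM in shGXYLT2 and 45.0 CPM in shControl (edgeR adjusted p = 0.054). Its edgeR adjusted p was 0.013 without shGXYLT2 replicate 3 and 0.014 with GC content and length offsets. The growth hormone receptor GHR averaged 4.90 CPM in shGXYLT2 and 5.33 CPM in shControl (edgeR adjusted p = 0.67).

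**Figure D4:**
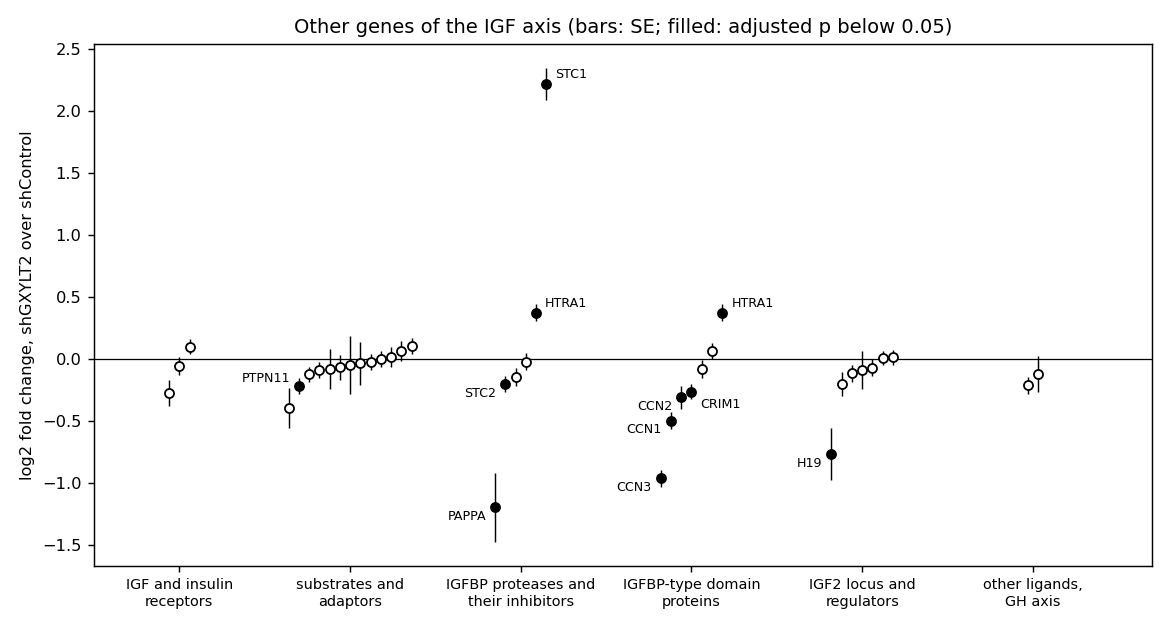
Log2 fold change (y axis, shGXYLT2 over shControl) of the tested genes in 6 lists of the IGF axis; bars are SE and filled points had an adjusted p below 0.05. STC1 stands at 2.22 and PAPPA at -1.20, while the receptors lie between -0.27 and 0.099 and the adaptors between -0.40 and 0.11; HTRA1 belongs to 2 lists and is drawn in each.

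Over the 6 libraries, the expressed protein-coding genes whose log2 CPM tracked IGFBP5 most closely were MAGED2, HHIPL2 and TFAP2A (Pearson r = 0.999, 0.998 and 0.998 among 9606 genes). They were 1.23-, 1.60- and 1.24-fold higher in shGXYLT2. TFAP2A encodes the transcription factor AP-2 alpha, and a part of it in the members' changes was not tested. For IGFBP7 they were LTBP1, which binds latent TGF-beta in matrix, EWSR1 and KREMEN1 (r = 0.997, 0.995 and 0.994), and for IGFBP6 they were COL1A1, a chain of type I collagen, PNMA2 and EIF2B2 (r = 0.998, 0.997 and 0.997). For IGFBP4 they were SSR2, TUBB and DDX23 (r = 0.996, 0.990 and 0.987). The libraries form 2 groups, so high values are common. With IGFBP5, 5.56% of genes exceeded an r of 0.9, with IGFBP7 6.09% and with IGFBP6 6.56%. With IGFBP4, whose groups overlapped, 2.94% did.

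Fibroblast markers were expressed in these cells. Of 5 such markers 5 were tested, 2 rose, 0 fell, and none was at 0 in any group. Over all tested genes 5.31% rose and 6.84% fell. The summed level of the 5 markers was 505 to 546 CPM in shGXYLT2 and 399 to 403 CPM in shControl. DCN, the proteoglycan decorin, averaged 250.4 ± 1.49 CPM in shGXYLT2 and 186 ± 7.99 CPM in shControl (SD over 3 libraries each; adjusted p = 3.9e-05 by edgeR), and LUM, lumican, averaged 240 ± 20.9 CPM in shGXYLT2 and 180 ± 1.91 CPM in shControl (SD over 3 libraries each; adjusted p = 2.4e-04 by edgeR). These 2 genes made up most of the sum. PDGFRB averaged 0.673 ± 0.216 CPM in shGXYLT2 and 1.28 ± 0.195 CPM in shControl (SD over 3 libraries each; log2 fold change -0.90, adjusted p = 0.081 by edgeR), with groups that did not overlap. PDGFRA averaged 30.3 CPM in shGXYLT2 and 26.2 CPM in shControl (edgeR adjusted p = 0.090). Its edgeR adjusted p was 0.024 without shGXYLT2 replicate 3 and 0.0075 with GC content and length offsets. FAP averaged 8.51 CPM in shGXYLT2 and 8.89 CPM in shControl (edgeR adjusted p = 0.85). The part of the fibroblast markers in the members' changes was not tested. Of 4 endothelial markers PECAM1, CDH5 and KDR were at 0, with a summed level of at most 0.241 CPM in shGXYLT2 and 0.173 CPM in shControl. The 4 leukocyte markers used (PTPRC, CD3E, CD68 and LYZ) summed to 0.444 to 0.754 CPM in shGXYLT2 and 0.506 to 1.03 CPM in shControl, with CD3E at 0 and 0 of the 4 above the filter on low counts.

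A 7-base word, GACTCAT, was chosen earlier on these same libraries as one more frequent in the 3′ UTRs of genes that fell. None of the 9 members held it in the longest annotated 3′ UTR (250 to 6633 bases, GENCODE 29), while 8.12% of 18729 genes in the table with a 3′ UTR of at least 100 bases did. IGFBP6, which fell, does not hold it. The word came from these same libraries and few genes hold it, so its absence in 9 genes tests nothing about it.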

How the data were processed

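RNA-seq of HGC-27 cells was analysed, with 3 shGXYLT2 and 3 shControl libraries grouped and numbered by their titles. The authors deposited estimated counts per gene that were not normalized, of which 12.3% were not whole, and a gene length without definition (another column of the deposited table, used as listed). Per the labels' protocols, RNA came from TRIzol and a stranded mRNA ligation kit; the GRCh38.p13 build and the tools HISAT2, StringTie and fastp are named per the submitters' processing notes. No source used here gives their versions or the counting step.

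Counts were rounded, filtered by filterByExpr, scaled by TMM and fitted with the robust quasi-likelihood test of edgeR 4.0.16 (R 4.3.3) with group as the only term, which tested 15693 genes; p-values are two-sided and Benjamini-Hochberg adjusted over all of them at 0.05. SE of log2 fold changes follow from the F statistic. DESeq2 1.42.0, limma-voom (limma 3.58.1) and other settings were alternatives, and the model was tested on simulated data. GC content came from GENCODE 29 transcripts (96.3% of tested genes). Promoter sequences are RefSeq's (GRCh38.p14; 6 of 9 members had entries).

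Deviations of libraries with the same title number correlated at -0.00017, -0.079 and -0.078, which gave no sign of a pairing by that number. The deviations were taken from means of 3 libraries, so these correlations constrain each other and cannot show that a pairing is absent. The highest values across numbers were 0.084 (shGXYLT2 2 with shControl 3) and 0.073 (shGXYLT2 3 with shControl 2). The deposited column names number some libraries otherwise than the titles, and the labels do not state a pairing.

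The members and lists were chosen with earlier results of these data known, and the motifs with the sequences known. Named genes are all members, GXYLT2, up to 3 risen and 3 fallen genes per list (or the 2 most abundant tested), and per called member and the member highest per kb the 3 genes most like it by Pearson's r (log2 CPM + 0.5, mean log2 CPM of at least 3). A leukocyte marker of the list is not reported here. INSR, IRS1, CCN2, IGF2BP1, PDGFRA, PDGFRB, FAP and overlapping genes were named after their values were seen.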

Additional observations from a re-analysis of the deposited data

How the results depend on the processing

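IGFBP5, IGFBP7 and IGFBP6 kept their direction and passed in all 15 alternative settings, with log2 fold changes of 0.73 to 0.83, 0.63 to 0.71 and -0.67 to -0.55 and adjusted p of at most 3.9e-05, 1.3e-04 and 0.019. The number of members called was 3 in every setting that kept all libraries and 3 to 4 with 1 library left out. The count over all genes was 960 to 2347 with 1 library left out (990, 1152 and 960 without shControl replicates 1, 2 and 3) and 3087 with GC content and length offsets, against 1907; risen and fallen genes numbered 833 and 1074, 1024 and 963 with upper-quartile factors, and 1038 and 1057 with no low-count filter. The cause was not tested. With the replicate block 1471 genes and 3 members were called; PTPN11, CCN2 and STC2 (adjusted p = 0.10) lost their call under it. Of 33 log2 fold changes recomputed for named genes, those of FAP and IGF2BP1, not called in any setting, changed sign: FAP (-0.053) ran from -0.15 to 0.069 and IGF2BP1 (0.015) from -0.014 to 0.051 with 1 library left out, with the sign turned for FAP without shGXYLT2 replicate 3 (0.069) or shControl replicate 2 (0.011) and for IGF2BP1 without shGXYLT2 replicate 1. IGF1 had 13 or fewer counts in each library, so a difference may not be detectable at this depth. Tested without a filter, its edgeR adjusted p was 0.66. It also passed the filter without shGXYLT2 replicate 1 or without shControl replicate 1, 2 or 3. Its log2 fold change in those fits was 0.21 to 1.19, with an edgeR adjusted p of 0.35 to 0.90.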
